A study of Mus musculus with 6 samples.

Results

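The mast cell protease genes described here are Mcpt1, Mcpt2, Mcpt4, Mcpt8, Cma1 and Cpa3, measured in a carcinoma cell line rather than in mast cells. They were chosen by gene symbol, after the low Mcpt2 value in cells with forced miR-200 expression was known, and every probe set annotated to one of these symbols alone was taken. That gave 6 probe sets, 1 for each of the 6 genes, out of 45037 on the array and 18193 genes with a probe set of their own. Because the contrast between miR-200 and control cells led to the choice of these genes, their differences are given as a description, with no test.

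The cells were 344SQ, a line grown from tumor tissue at a subcutaneous site of one mouse (number 344) of the genotype p53R172H∆g/+ K-rasLA1/+, so both groups carry the mutant p53 and K-ras alleles. The miR-200 group consisted of 3 cultures transduced with a lentivirus for the miR-200b-200a-429 cluster, and the control group of 3 cultures transduced with the control vector. Both are GFP-positive pools kept under puromycin. No promoter of the vector is named in the labels, and the labels do not say whether the cultures of a group came from separately transduced pools, so the error terms measure the spread between cultures. A stable difference between the pools and an effect of the microRNAs cannot be told apart in this design.

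Mast cells store serine proteases and a carboxypeptidase in secretory granules, bound to proteoglycans, and release them on activation. The chymases of the mouse are encoded by a gene cluster shared with the granzymes of cytotoxic lymphocytes. In mouse tissues Mcpt1 and Mcpt2 mark mucosal mast cells, as in the gut, Mcpt4 and Cma1 mark connective tissue mast cells, Mcpt8 is a protease of basophils, and Cpa3 encodes the granule carboxypeptidase.

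The tested agent is shown by the mature sequences of its 3p strands. They are taken from RefSeq (GRCm38.p6), 5′ to 3′, with the seed (bases 2 to 8) in capitals.
mmu-miR-200b-3p (chr4:156055685-156055706, minus strand): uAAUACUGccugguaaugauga
mmu-miR-429-3p (chr4:156053916-156053937, minus strand): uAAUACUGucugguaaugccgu
mmu-miR-200a-3p (chr4:156054911-156054932, minus strand): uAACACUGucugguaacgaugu
The strands miR-200b-3p and miR-429-3p share the seed AAUACUG, and miR-200a-3p has AACACUG. The cluster also encodes 5p strands with other seeds, which are not printed. The levels of the microRNAs were not analysed here.

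Values are log2 signals after quantile normalization of the 6 arrays. Background was gauged by the spike-in controls that match bacterial trp, whose 3 probe sets reached at most 5.28 on this scale. Array medians as deposited lay between 6.32 and 6.41, so a value above the gauge can still lie under the median probe set. Being above the gauge is thus not by itself a sign of expression. Where the lower group's mean lay under the gauge, a fold is given as "at least", against the gauge, and where both means did, no fold is given. With 3 arrays in each group, their number sets the precision. The arrays of miR-200 culture A and control culture B stood apart from the others of their groups, with deviations from the group means that correlated at 0.71 over the brighter 60% of probe sets. The contrast passed the threshold (limma, Benjamini-Hochberg adjusted p under 0.05) for 335 of the 45037 probe sets, or 0.744%, of which 116 were higher and 219 lower in miR-200 cells. Leaving out 1 array gave 32 (control A), 139 (control B), 57 (control C), 328 (miR-200 A), 40 (miR-200 B) or 54 (miR-200 C) probe sets. Epithelial marker genes were well above the gauge in both groups. Krt18 read 13.91 ± 0.01 in miR-200 cells and 13.93 ± 0.02 in control cells (SD, n = 3 each). Krt8 read 13.45 ± 0.06 and 13.52 ± 0.14, and Cdh1 13.3 ± 0.1 and 13.2 ± 0.1. Epcam read 9.70 ± 0.21 and 9.28 ± 0.13, with groups that did not overlap (limma, adjusted p = 0.344).

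The mucosal mast cell protease Mcpt2 (probe set 1449989_at) read 6.34, 5.32 and 5.65 in miR-200 cultures A, B and C, against 12.19, 12.82 and 12.02 in control cultures A, B and C. All 3 control values lay high on the scale, all 3 miR-200 values lay close to the background gauge, and the groups did not overlap. The means were 5.77 ± 0.52 in miR-200 cells and 12.35 ± 0.42 in control cells (SD, n = 3 each), a difference of -6.58 ± 0.35 (log2 ± SE), or 95.4-fold lower. Among all probe sets this was the 6th lowest difference. Since miR-200 culture B read 5.32, next to the gauge, the fold depends on a value near background. In bulk RNA, fewer cells that express a gene and less RNA per cell cannot be told apart.

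Mcpt1 (1422352_at), the neighbouring gene on the chromosome and the best known chymase of gut mast cells, differed in the same direction. It read 6.14, 5.59 and 5.48 in the miR-200 cultures, against 9.68, 8.93 and 9.47 in the control cultures. Again the groups did not overlap, and the miR-200 values were within about 1 log2 unit of the gauge. The means were 5.74 ± 0.35 in miR-200 cells and 9.36 ± 0.39 in control cells (SD, n = 3 each), a difference of -3.63 ± 0.28 (log2 ± SE), or 12.3-fold lower, the 58th lowest among all probe sets.

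The basophil protease Mcpt8 (1449965_at) was well above the gauge on every array. It read 12.26, 11.61 and 11.49 in the miR-200 cultures, against 12.61, 12.10 and 12.52 in the control cultures. The groups overlapped, because miR-200 A was the highest of its group and control B the lowest of the other, and those are the arrays that stood apart. The difference was -0.63 ± 0.27 (log2 ± SE) on all 6 arrays and -1.02 ± 0.11 without both of them. Leaving out the arrays that made the groups overlap widens the difference by construction. Mcpt8 was past the threshold in 0 of 14 alternatives.

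Mcpt4 (1425967_a_at), the main chymase of connective tissue mast cells in the mouse, read 7.94, 8.23 and 8.15 in the miR-200 cultures, against 7.86, 8.16 and 8.27 in the control cultures. These values interleave, all above the gauge, and the difference was 0.01 ± 0.17 (log2 ± SE).

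The remaining members, Cma1 and Cpa3, lay under the gauge on all 6 arrays. Cma1 (1449456_a_at), the gene of the α-chymase, read 2.69, 3.25 and 3.26 in the miR-200 cultures, against 4.54, 3.86 and 3.84 in the control cultures. Its groups did not overlap, with a difference of -1.01 ± 0.27 (log2 ± SE), but both lay in the range where signal cannot be told from background. Cpa3 (1448730_at), the carboxypeptidase gene that serves as a general mast cell marker, read 4.79, 4.89 and 4.53 in the miR-200 cultures, against 3.96, 4.46 and 4.64 in the control cultures, with overlapping groups and a difference of 0.38 ± 0.22.

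**Figure D1:**
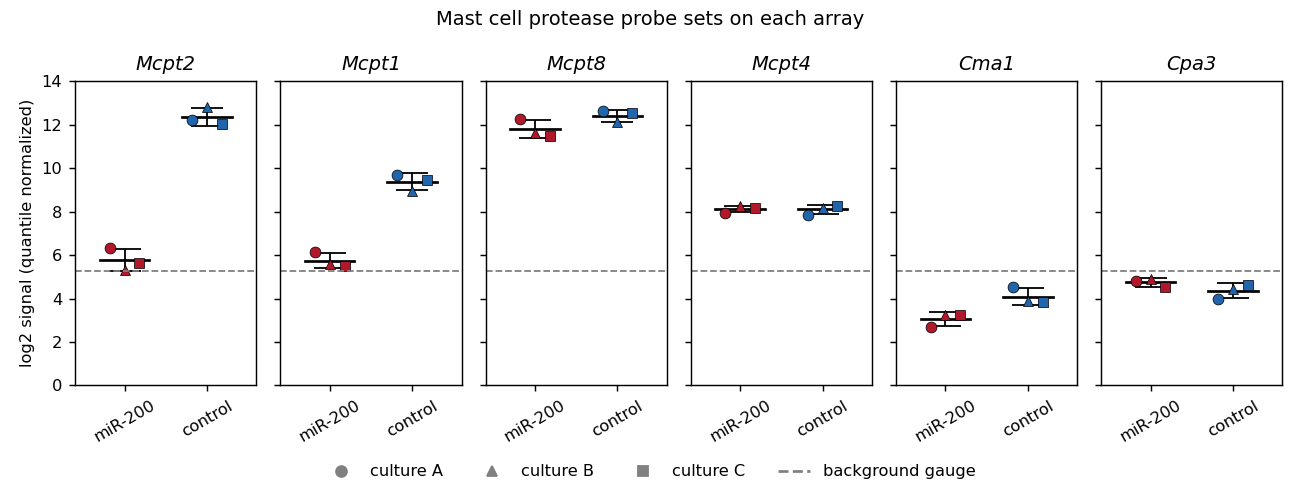
Log2 signal (y axis, quantile normalized) of each mast cell protease probe set in the 3 miR-200 and the 3 control arrays, with symbols for cultures A, B and C, black lines for mean ± SD and a dashed line at the background gauge of 5.28. Mcpt2 and Mcpt1 lie near the gauge in the miR-200 arrays and far above it in the control arrays, Mcpt8 and Mcpt4 lie above it in both groups, and Cma1 and Cpa3 lie under it.

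Of the 6 members, 4 were above the gauge in some array, 2 were past the threshold, both lower in miR-200 cells, and 3 had groups that did not overlap, namely Mcpt2, Mcpt1 and Cma1. On the whole array 0.744% of probe sets were past the threshold and 21.3% had groups that did not overlap. The count of 2 became 0 without control A, and 1, Mcpt2 alone, without control C, miR-200 B or miR-200 C. Nothing is read from these counts, since the contrast was used in choosing the genes.

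The arrays that stood apart moved the members in different ways within their groups. On miR-200 A, Mcpt2, Mcpt1 and Mcpt8 lay 0.85, 0.60 and 0.71 above the mean of the other miR-200 arrays, and each was the highest of its group. On control B, Mcpt2 lay 0.72 above the mean of the other control arrays, whereas Mcpt1 and Mcpt8 differed from it by -0.65 and -0.47. Without both arrays the differences of Mcpt2 and Mcpt1 were -6.62 ± 0.17 and -4.04 ± 0.13 (log2 ± SE).

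**Figure D2:**
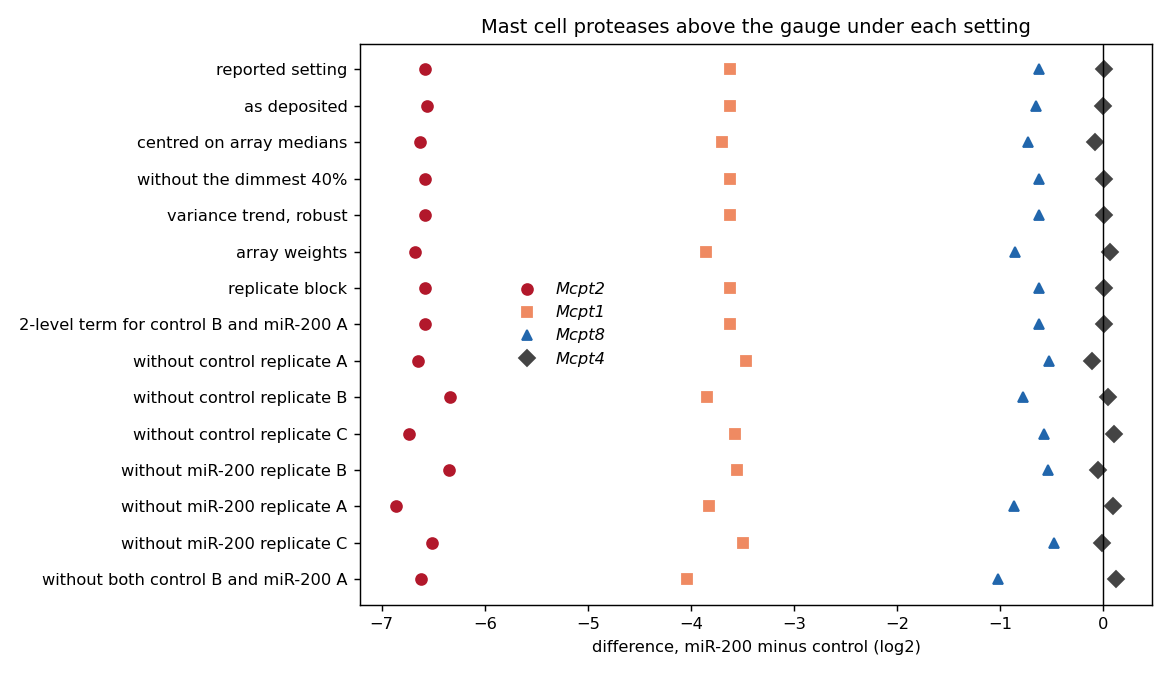
Difference of miR-200 minus control (x axis, log2) of the 4 proteases above the gauge, 1 row per setting of normalization, model or arrays left out. Mcpt2 stays between -6.86 and -6.34, Mcpt1 between -4.04 and -3.46, Mcpt8 between -1.02 and -0.48, and Mcpt4 between -0.11 and 0.13.

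The genes whose profile over the 6 arrays was most like that of Mcpt2 were looked for by distance. This was the root mean square distance between log2 values centred on each probe set's mean. Each gene was taken by its closest probe set, which need not be its brightest. They were Tmlhe (1420725_at), an enzyme gene of carnitine synthesis, Nid1 (1416808_at), a linker protein of basement membranes, Sftpb (1437028_at), surfactant protein B, Auts2 (1457139_at), the forkhead factor gene Foxd1 (1418876_at) and Tmigd1 (1419498_at). Their distances were 0.35, 0.39, 0.40, 0.49, 0.58 and 0.75 log2 units in that order. All but Sftpb had miR-200 means under the gauge, so their distances rest partly on values at background. Because the search matched profiles to that of Mcpt2, falls close to its own in size follow by construction, and nothing is read from them. As folds against the gauge, Tmlhe was at least 15.2-fold lower in miR-200 cells, Nid1 at least 57.4-fold, Auts2 at least 27.4-fold, Foxd1 at least 10.6-fold and Tmigd1 at least 39.0-fold. Sftpb, above the gauge on every array, read 6.57, 6.55 and 6.51 in the miR-200 cultures against 12.38, 13.01 and 12.34 in the control cultures, and was 65.6-fold lower. The brightest Tmlhe probe set, 1420727_a_at, differed by only 0.18 ± 0.18 (log2 ± SE). The brightest of Auts2, 1438680_at, differed by -4.72 ± 0.32. Of the 5 Auts2 probe sets 3 passed the threshold, and 1452379_at and 1443062_at, which did not, differed by -0.92 ± 0.15 and -0.03 ± 0.54. Of the 3 Nid1 probe sets 2 passed. The dimmer ones, 1448469_at and 1441519_at, differed by -2.79 ± 0.20 and -1.24 ± 0.47, and 1441519_at, under the gauge in both groups, did not pass. Mcpt1 was 46th among genes by this measure, at a distance of 1.55. Its correlation with Mcpt2 over the 6 arrays was 0.98, and the distance also counts the size of the difference. With both genes lower in the miR-200 group, a correlation near this follows from the contrast used in choosing them, so nothing is read from it. Within the control group, Mcpt2 was above the mean of the other arrays on control B by 0.72, whereas Mcpt1 differed from it by -0.65.

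Of the 6 members, 5 lie on chromosome 14 and Cpa3 lies on chromosome 3. In the RefSeq order (GRCm38.p6) the protein-coding genes of the cluster run Cma1, Cma2, Mcpt1, Mcpt2, Mcpt9, Mcpt4, Mcpt8, Ctsg and then the granzymes Gzme, Gzmd, Gzmg, Gzmn, Gzmf, Gzmc and Gzmb. The low values in miR-200 cells were thus found in adjacent genes, Mcpt1 and Mcpt2, while Mcpt4, 2 places along, did not follow. Of these 15 genes, 13 have a probe set of their own, and Cma2 and Mcpt9 share a probe set, which was not used. Of the 8 neighbours that are no members, none was past the threshold (limma, 0 higher and 0 lower), against 0.945% of all genes, and at an unadjusted p under 0.05 there was 1, lower in miR-200 cells, against 14.8% of all genes. Their median difference was -0.48, against 0.0014 over all genes, and 7 of them lay under the gauge in both groups.

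The neighbour above the gauge was Gzme, a granzyme gene, measured by a probe set of the _x_at class, some of whose probes match other genes (1450171_x_at). It read 9.69, 8.60 and 8.33 in the miR-200 cultures, against 10.48, 9.97 and 10.29 in the control cultures. The groups did not overlap, with a difference of -1.38 ± 0.39 (log2 ± SE) that did not pass (adjusted p = 0.225). Gzmb, the best studied granzyme, was listed at 0 on all 6 arrays. Gzmc and Gzmd differed by -1.35 ± 0.73 (adjusted p = 0.477) and -0.53 ± 0.36 (adjusted p = 0.574), both under the gauge. Outside the cluster, none of the 6 flanking genes on each side, chosen after the data were seen, was past the threshold, and 2 of the 12 had an unadjusted p under 0.05, against 14.8% of all genes. These were Ripk3, a kinase gene of necroptosis, at least 1.48-fold higher against control values that all lay under the gauge (adjusted p = 0.138), and Cbln3, with a difference of -2.11 ± 0.60 (adjusted p = 0.229).

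**Figure D3:**
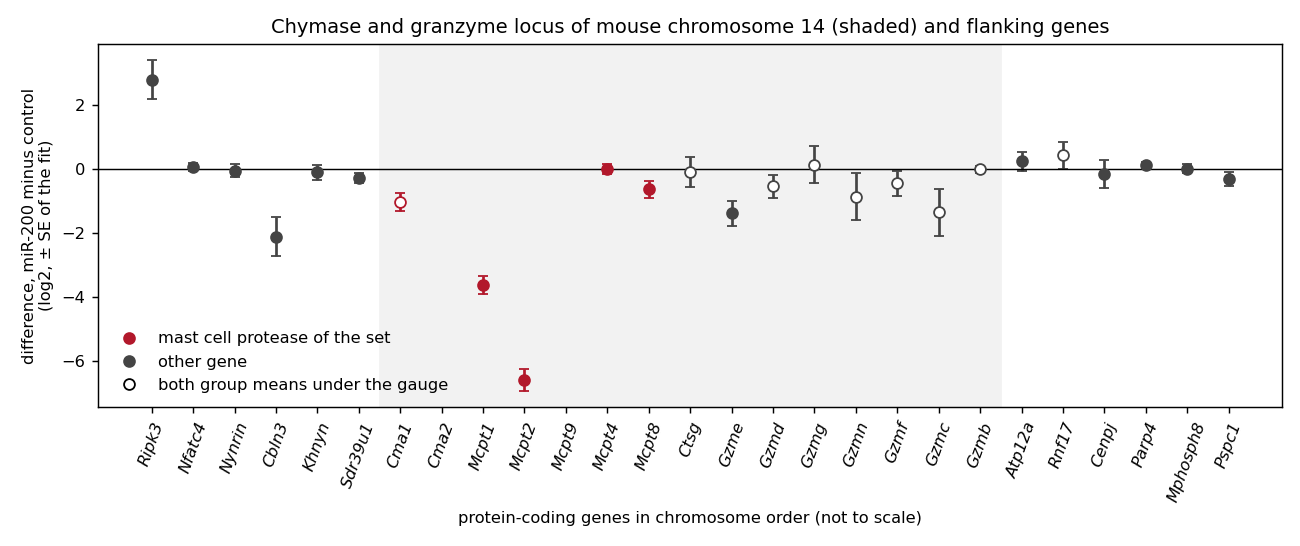
Difference of miR-200 minus control (y axis, log2, ± SE of the fit) for protein-coding genes in chromosome order, with the cluster from Cma1 to Gzmb shaded, members in red and open symbols where both group means lie under the gauge. Mcpt1 and Mcpt2 stand next to each other at -3.63 and -6.58, Mcpt4 stands at 0.01, and Cma2 and Mcpt9 have no value.

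The members of the cluster are relatives of each other, and which of the other chymase transcripts the probes of each set match was not tested. To show how alike the upstream regions of a gene that differed and of genes that differed less or not at all are, the 250 bases before the annotated start are printed for the 3 members above the gauge that the RefSeq promoter table (GRCm38.p6) holds. Capitals mark matches to motifs that transcription factors of mast cells and of TGF-beta signalling are known to bind. The motifs searched, on both strands, were GATAA (GATA factors), CATGTG and CACGTG (E-boxes of the kind bound by Mitf), TGTGGT (Runx factors), GAGGAA (the Ets factor PU.1) and CAGACA (Smad factors). No matches overlapped in these windows.
Mcpt1 (chr14:56017714-56017963, plus strand): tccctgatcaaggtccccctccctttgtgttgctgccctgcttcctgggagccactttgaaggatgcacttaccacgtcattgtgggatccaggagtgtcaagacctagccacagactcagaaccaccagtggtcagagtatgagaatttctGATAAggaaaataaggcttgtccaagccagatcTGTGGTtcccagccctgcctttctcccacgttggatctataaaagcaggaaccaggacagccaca
Mcpt4 (chr14:56062311-56062560, minus strand): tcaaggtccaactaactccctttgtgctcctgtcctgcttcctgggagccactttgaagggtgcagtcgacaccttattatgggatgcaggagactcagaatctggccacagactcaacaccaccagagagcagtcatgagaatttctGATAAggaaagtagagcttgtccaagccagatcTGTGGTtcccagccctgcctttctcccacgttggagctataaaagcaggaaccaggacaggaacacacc
Mcpt8 (chr14:56085198-56085447, minus strand): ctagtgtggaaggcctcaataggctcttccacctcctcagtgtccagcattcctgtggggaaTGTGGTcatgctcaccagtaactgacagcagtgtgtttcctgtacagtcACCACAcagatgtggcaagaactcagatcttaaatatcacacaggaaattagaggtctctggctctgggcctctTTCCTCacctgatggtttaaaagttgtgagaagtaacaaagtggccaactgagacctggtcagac
The windows of Mcpt1 and Mcpt4 were 81.9% identical in a global alignment, and Mcpt1 and Mcpt8 54.3%, close to the 48.3% between Mcpt1 and Cpa3. Both Mcpt1 and Mcpt4 hold 1 GATAA match, starting 98 and 102 bases before the start, and 1 TGTGGT match, at 65 and 69 bases. Mcpt8 holds 2 TGTGGT matches and 1 GAGGAA match, with no GATAA. The window of Mcpt4, whose signal did not differ, and that of Mcpt1, 12.3-fold lower, held these matches in nearly the same places. Whether the matches bear on either signal was not tested. Of the 32851 promoter windows of this length in the table, 22.6% hold GATAA, 14% TGTGGT, 23.3% GAGGAA, 12.3% CATGTG, 6.02% CACGTG and 17.1% CAGACA. A match is a description of letters, not of binding. Mcpt2 was not among the promoters analysed here.

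Markers of mast cells and basophils other than the members were read to see what cells the signal could go with. Of 20 such genes 17 were measured, and 9 lay under the gauge in both groups, among them the IgE receptor genes Fcer1a and Ms4a2 and the histamine-forming enzyme gene Hdc. One marker fell, none rose, against 0.945% of all genes past the threshold, and the median difference was -0.05. At an unadjusted p under 0.05, 1 was higher and 2 were lower, against 14.8% of all genes. The one that fell was Tpsab1 (1426175_a_at), a mast cell tryptase gene on another chromosome. It read 8.22, 8.16 and 7.85 in the miR-200 cultures, against 10.01, 10.26 and 9.88 in the control cultures, with no overlap. The difference was -1.97 ± 0.17 (log2 ± SE), 3.92-fold lower (adjusted p = 0.0179).

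Tpsb2, the neighbouring and closely related tryptase gene, read 7.29, 7.78 and 7.71 in the miR-200 cultures, against 7.29, 7.35 and 7.53 in the control cultures, a difference of 0.21 ± 0.18 (adjusted p = 0.666). RefSeq lists Tpsab1 as a transcribed pseudogene in the reference strain, and cross-matching between the tryptase probes was not tested. Leaving out control A, control B, control C, miR-200 B or miR-200 C ended the call of Tpsab1, with adjusted p between 0.0581 and 0.112, and so did leaving out both arrays that stood apart (adjusted p = 0.0761), while its difference stayed between -2.08 and -1.86 under every alternative run.

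The defining mast cell receptor gene Kit read 6.67, 6.81 and 5.98 in the miR-200 cultures, against 6.29, 6.86 and 6.36 in the control cultures with its brighter probe set (adjusted p = 0.992), and its other probe set lay under the gauge in both groups. The serotonin and histamine transporter gene Slc18a2 differed by 0.49 ± 0.13 (adjusted p = 0.207) and the interleukin 3 receptor gene Il3ra by -1.39 ± 0.23 (adjusted p = 0.0850). Fcer1a, Ms4a2 and Hdc had adjusted p of 0.489, 0.644 and 0.361. The summed linear signal of the 17 markers ranged from 1062 to 1236 in the miR-200 arrays and from 1965 to 2792 in the control arrays. Most of that gap lay in Tpsab1 and Il3ra, the 2 markers lower at an unadjusted p under 0.05 in limma. The other 15 summed to between 707 and 826 in the miR-200 arrays. In the control arrays they summed to between 670 and 1138, which overlaps. Because both markers were taken out after this same contrast was seen, the choice favoured an overlap, and nothing is read from it. Il6 alone reached 349 on control B, an array that stood apart, and this raised the top of the control range. None of the defining markers was at 0 on every array in its brighter probe set. The part of such cells in the Mcpt1 and Mcpt2 result was not tested.

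Markers of other blood cells did not pass. Of 19 measured, 0 were past the threshold in limma, against 0.945% of all genes. At an unadjusted p under 0.05, 1 was higher and 1 lower, against 14.8% of all genes, and the median difference was 0.03. Of the 19, 7 lay under the gauge in both groups and 12 had a group mean above it. Ptprc, the pan-leukocyte gene CD45, read 5.44, 5.75 and 5.30 in the miR-200 cultures, against 5.29, 5.91 and 5.59 in the control cultures. These values lay next to the gauge (adjusted p = 0.878). Its other probe set lay under the gauge, with means of 3.61 in miR-200 and 4.45 in control cells. Those groups did not overlap (adjusted p = 0.334). Csf1r, Prf1 and Cd79a differed by 0.45 ± 0.14, -0.43 ± 0.17 and 0.28 ± 0.12, with adjusted p of 0.264, 0.345 and 0.374. The summed signal of the 19 ranged from 2836 to 6259 in the miR-200 arrays and from 2714 to 3048 in the control arrays. The top of the miR-200 range was culture A, an array that stood apart. There Cd14 read 11.86, against 9.95 and 9.70 in miR-200 cultures B and C. It read 9.97, 9.54 and 9.68 in the control cultures (adjusted p = 0.627 in limma).

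Granule proteases need partners for activation, storage and release. Of 14 such genes measured, 2 fell and none rose, against 0.945% of all genes past the threshold, and the median difference was -0.16. At an unadjusted p under 0.05, 4 were lower and none higher, against 14.8% of all genes. Rab27a, a GTPase that docks secretory granules at the plasma membrane, read 4.99, 5.33 and 5.33 in the miR-200 cultures, against 8.97, 8.71 and 9.14 in the control cultures. Its miR-200 values lay at the gauge, and the difference was -3.73 ± 0.18 (log2 ± SE), at least 12.6-fold lower (adjusted p = 0.00389). Of its 4 probe sets 3 passed, and 1454438_at differed by -0.18 ± 0.14 (adjusted p = 0.646). Its relative Rab27b read 9.22, 9.23 and 9.15 in the miR-200 cultures, against 10.31, 10.27 and 10.36 in the control cultures, 2.16-fold lower (-1.11 ± 0.11, adjusted p = 0.0275). Of its 4 probe sets only this 1 passed, and the others were also lower, with adjusted p of 0.0502, 0.289 and 0.132. Leaving out any 1 of the 6 arrays ended the call of Rab27b (adjusted p between 0.0529 and 0.153) and did not end that of Rab27a (adjusted p between 0.0142 and 0.0473).

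Chst15, which makes a highly sulfated chondroitin known from mast cell granules, differed by -1.79 ± 0.34 without passing (adjusted p = 0.108). Srgn, the serglycin core protein to which the proteases bind in mast cell granules, lay under the gauge, at 1.63, 0 and 2.08 in the miR-200 cultures, against 0, 2.81 and 1.56 in the control cultures. Ctsc, the dipeptidyl peptidase that activates the chymases, was far above the gauge. It read 12.94, 12.29 and 12.24 in the miR-200 cultures, against 12.21, 12.12 and 12.22 in the control cultures (limma, adjusted p = 0.603).

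**Figure D4:**
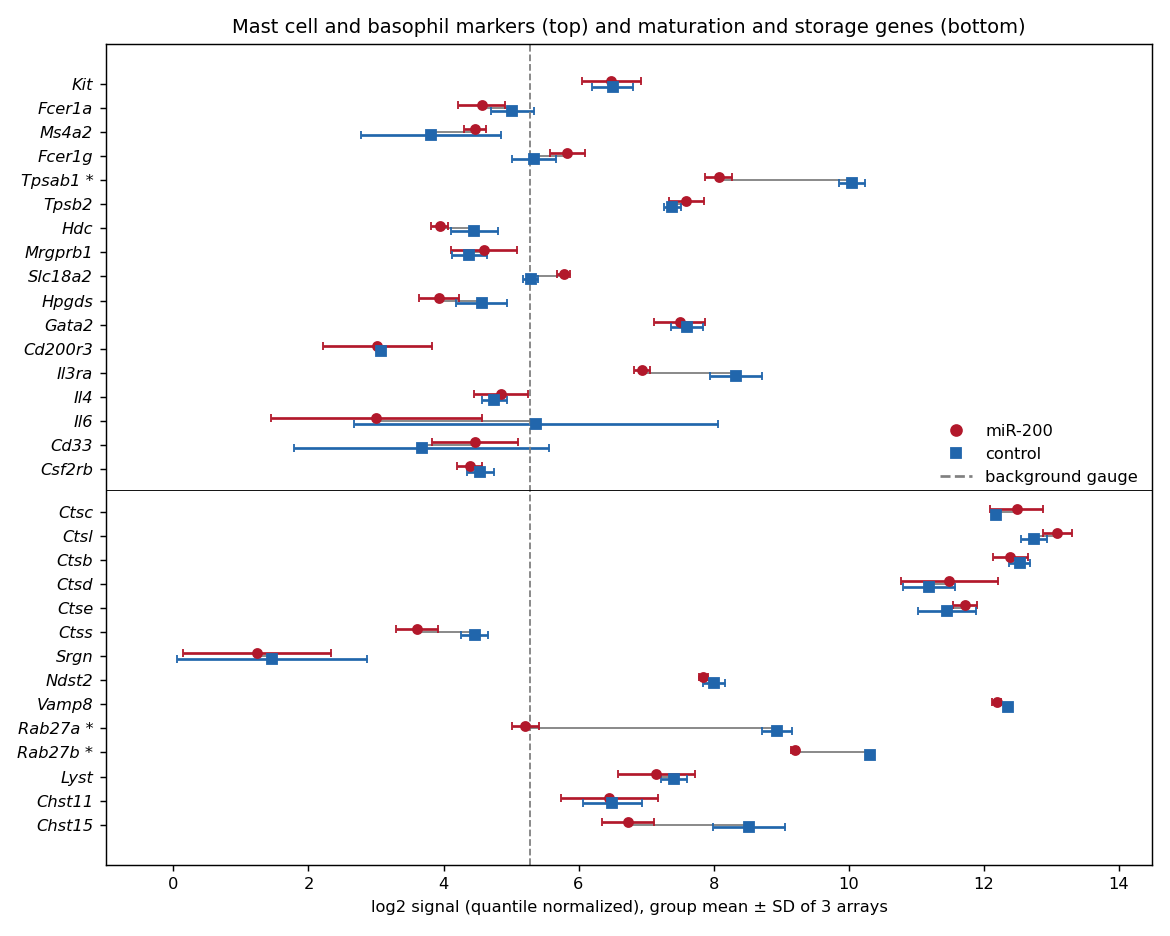
Group means ± SD of 3 arrays (x axis, log2 signal) of 17 mast cell and basophil markers and 14 genes of protease maturation and granule storage, miR-200 as circles and control as squares, with the background gauge dashed and an asterisk at genes past the threshold. Tpsab1, Rab27a and Rab27b carry the asterisk, each lower in miR-200 cells, and Srgn, Hdc, Ms4a2 and Fcer1a lie left of the gauge.

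The tryptases and carboxypeptidases, the enzyme families of the mast cell granule beside the chymases, had 21 members measured, of which 1 fell, Tpsab1 again, and none rose, against 0.945% of all genes (median difference 0.21). At an unadjusted p under 0.05, 1 was higher and 2 were lower, against 14.8% of all genes. The abundant Cpe, a carboxypeptidase of hormone-secreting cells, read 13.06, 12.66 and 12.62 in the miR-200 cultures, against 11.88, 12.39 and 11.85 in the control cultures, a difference of 0.74 ± 0.22 that did not pass (adjusted p = 0.241). Cpn1 lay under the gauge and differed by -0.89 ± 0.29 (adjusted p = 0.272).

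Among 12 serine protease inhibitors measured, none was past the threshold in limma, and at an unadjusted p under 0.05 there was 1, lower in miR-200 cells, against 14.8% of all genes (median difference 0.04). It was Serpinb1a, an inhibitor of chymotrypsin-like and elastase-like proteases, at 4.62, 1.76 and 0.93 in the miR-200 cultures, against 7.23, 8.65 and 6.54 in the control cultures. The groups did not overlap, but all 3 miR-200 values lay under the gauge and the spread between cultures was wide. Against the gauge the gene was at least 4.58-fold lower, a difference that did not pass (adjusted p = 0.139). The other Serpinb1a probe set lay under the gauge. Serpinc1, whose control values lay under the gauge, was at least 1.19-fold higher (adjusted p = 0.406), and Spint1 differed by 0.74 ± 0.35 (adjusted p = 0.422).

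Of the signals and transcription factors known to control protease genes in mast cells, 24 were measured and none was past the threshold, with 1 lower at an unadjusted p under 0.05 in limma, against 14.8% of all genes (median difference -0.02). That gene was Tgfb2, a ligand of the TGF-beta pathway, a pathway known to induce Mcpt1 in mouse mast cells. It read 6.92, 6.70 and 6.62 in the miR-200 cultures, against 7.87, 9.69 and 7.81 in the control cultures (-1.71 ± 0.54, adjusted p = 0.259), with control B far above the other arrays. Its 3 dimmer probe sets had miR-200 means under the gauge. Their folds against the gauge were at least 8.13, 3.71 and 9.39, each lower in miR-200 cells (adjusted p between 0.115 and 0.137). The integrin gene Itgb6, which activates TGF-beta on epithelia, differed by 0.52 ± 0.26 (adjusted p = 0.437), and Il3, under the gauge, by 0.89 ± 0.46 (adjusted p = 0.465). The transcription factor genes Mitf and Gata2 had adjusted p of 0.716 and 0.880.

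Among 14 substrates and receptors of these proteases, none was past the threshold, and 1 was higher at an unadjusted p under 0.05 in limma, against 14.8% of all genes (median difference -0.03). That gene was Mmp9, a matrix metalloproteinase whose proenzyme chymase cleaves, under the gauge in both groups, so no fold is given (adjusted p = 0.171). Without control B the count past the threshold was 1. Thbs1 and the endothelin gene Edn1 differed by 1.47 ± 1.04 (adjusted p = 0.594) and 0.44 ± 0.27 (adjusted p = 0.534).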

How the data were processed

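Biotin-labelled cRNA of 6 cultures was hybridized to Affymetrix mouse expression arrays, per the labels' protocols. The table as deposited by the authors holds log2 signal for each probe set; its summarisation and normalization are not given in the sources at hand. Between 1578 and 1718 values per array were exactly 0, a floor. Array medians spanned 0.0924 and interquartile ranges 0.174, above the limit of 0.1 set for leaving values as they were, so the arrays were quantile normalized (limma 3.58.1, R 4.3.3). The 64 control probe sets were left out. Symbols came from the platform annotation, updated by gene number to RefSeq. Of 34945 probe sets with 1 symbol 34741 matched. A further 932 had several symbols and 9160 had none. A gene was represented by its brightest probe set, except in the search for genes most like Mcpt2. That search took the closest probe set of each gene.

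Differences are miR-200 minus control from lmFit and eBayes without further terms, two-sided, adjusted over 45037 probe sets. The fit was tested on simulated data with a smaller spread than these data and with changes placed in bright probe sets only. That checks the code, and cannot show how the fit performs on values near background. Members and gene lists were chosen with earlier results of these data known; lists of 8 kinds came from general knowledge. Named were all members, list genes past the threshold or among the 3 lowest p-values of a list, defining mast and blood cell markers, and the 6 genes most like Mcpt2. Genes in addition to these, and all flanking genes, were named after their values were seen. The gauge of background was likewise chosen after the data had been seen. Upstream windows were aligned with Biopython 1.88. The alternatives are given in the closing section.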

Additional observations from a re-analysis of the deposited data

How the results depend on the processing

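Mcpt2 ranged from -6.86 to -6.34 (log2) over 15 alternatives and Mcpt1 from -4.04 to -3.46 over 14. Of the 335 probe sets past the threshold, the count became 923 without the dimmest 40% (where Cma1 and Cpa3 were not measured), 951 with a variance trend, 1291 with array weights, 946 with a 2-level term for control B and miR-200 A, 103 without both (18 higher, 85 lower), and from 32 (without control A) to 328 (without miR-200 A) when 1 array was left out. The 2 members past the threshold became 0 without control A and 1 without control C, miR-200 B or miR-200 C, when Mcpt2 was left, and between 0 and 2 in all when 1 array was left out.

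With the culture letter as a replicate block, 0 probe sets, 0 members and 0 genes of the lists passed in limma, while the unadjusted p was under 0.05 for 4280 probe sets. Arrays of the same letter had deviations with correlations of -0.58 (A), -0.67 (B) and 0.43 (C), so the letters are not shown to pair the cultures.

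Mast cell and basophil markers had 2 calls without the dimmest 40%, with array weights and with the variance trend, 0 without both arrays, and 0 to 1 without 1 array. Tryptases and carboxypeptidases had 2 with the 2-level term, 0 without both arrays and 0 to 1 without 1 array. Maturation and storage genes had 1 without both arrays and 1 without any 1 array. Inhibitors had 1 with array weights and 1 with the 2-level term, cluster neighbours 1 with array weights, and substrates 1 with array weights and 0 to 1 without 1 array, the 1 being without control B. The cause was not tested, other than that fewer arrays or probe sets act by construction. Signal over background limits Cma1 and Cpa3, which lie under the gauge, and the miR-200 values of Mcpt1 and Mcpt2, which lie close above it.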
